A study of Mus musculus with 4 samples.

Results

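Long unmethylated CpG-dense islands are stretches of mouse genome in which many CpG dinucleotides lie close together and almost none carries methylation. They were taken from reduced representation bisulfite sequencing (RRBS), which reads methylation at CpGs near MspI sites (CCGG) in size-selected fragments, here of 40 to 220 bp. A CpG entered when it had at least 10 reads in all 4 libraries and at least 12 CpGs listed in any library within 100 bp either side. Such CpGs at most 200 bp apart on an autosome were joined. A run was kept when it spanned at least 500 bp, held at least 30 CpGs and had a pooled methylation level under 10% in the 0Div and 1Div libraries. This gave 3209 islands of the 18181 CpG-dense runs with at least 3 CpGs in the series. Because the 0Div and 1Div levels chose the islands, these levels are description only, and the comparison tested is that of the other two libraries, >3Div and control.

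The study followed mouse embryonic fibroblasts (MEFs) in the first phase of reprogramming toward pluripotency, with 1 RRBS library per group. All cells were secondary, inducible MEFs of a 129/SvJ x C57/B6 hybrid background, which carry the reprogramming factors under doxycycline control. The control cells were uninduced. The 0Div, 1Div and >3Div cells received doxycycline for 96 hours and were grouped by how often they had divided: on average 0 times, 1 time, and 3 or more times. Growth medium held 10% fetal bovine serum. The labels give 15% serum with doxycycline or 0.5% serum for starvation without saying which cohort had which, so serum and division number cannot be told apart. Each library is a bulk population, in which a level of 5% may be a few methylated cells or a little methylation in many. With 1 library per group there is no replicate error: intervals and tests cover counting of reads only, reads had no molecular identifiers, and a difference is one between 2 libraries.

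As background, CpG islands lie at the start sites of most housekeeping genes and of many developmental regulators, and in somatic cells they usually stay free of methylation. CXXC-domain proteins such as Kdm2b and Cfp1 bind unmethylated CpGs there, and trimethylation of histone H3 lysine 4 keeps the de novo enzymes Dnmt3a and Dnmt3b away. Dnmt1 copies existing methylation to the daughter strand at replication.

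Promoter sequences of 5 genes show what these islands look like and where the differences sat. Each runs from 250 bases before to 50 bases after a RefSeq start (GRCm38.p6), 5′ to 3′ on the strand of its gene, and was tied to an island through the spacing of its CGs. In the first 3, capitals mark the CGs that passed the single-CpG test between >3Div and control. Spata1, on the minus strand of chromosome 3, shares its island with Gng5, which encodes a G-protein gamma subunit, and its 8 marked CGs were lower in >3Div. 0610009L18Rik, on the plus strand of chromosome 11, shares its island with Actg1, the gene of cytoplasmic gamma-actin, and its 2 marked CGs were lower in >3Div. D030025P21Rik, on the plus strand of chromosome 12, has the only matched start among the islands that gained methylation, and its 1 marked CG was higher in >3Div.
Spata1: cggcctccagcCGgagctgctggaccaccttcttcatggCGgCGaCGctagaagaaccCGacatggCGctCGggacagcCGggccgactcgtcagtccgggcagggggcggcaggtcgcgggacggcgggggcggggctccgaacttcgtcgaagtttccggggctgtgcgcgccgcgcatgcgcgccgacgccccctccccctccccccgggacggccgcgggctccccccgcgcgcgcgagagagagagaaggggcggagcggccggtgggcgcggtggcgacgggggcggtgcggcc
0610009L18Rik: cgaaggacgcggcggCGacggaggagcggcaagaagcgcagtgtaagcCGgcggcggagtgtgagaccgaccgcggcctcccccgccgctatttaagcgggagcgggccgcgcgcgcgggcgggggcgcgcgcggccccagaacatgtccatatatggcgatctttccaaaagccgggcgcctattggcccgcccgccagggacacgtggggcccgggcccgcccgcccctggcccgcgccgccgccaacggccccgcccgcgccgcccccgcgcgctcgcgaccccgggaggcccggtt
D030025P21Rik: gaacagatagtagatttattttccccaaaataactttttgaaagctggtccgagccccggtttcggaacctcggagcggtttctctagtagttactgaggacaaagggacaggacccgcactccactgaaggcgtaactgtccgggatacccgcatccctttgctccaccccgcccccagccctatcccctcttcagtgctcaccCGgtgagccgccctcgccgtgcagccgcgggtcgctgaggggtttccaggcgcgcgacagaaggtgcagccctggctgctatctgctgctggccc
In the other 2, capitals mark the CGs with at least 10 reads in all 4 libraries, none of which passed that test. Fgf4, on the plus strand of chromosome 7, encodes a growth factor of the early embryo. Rab7, on the minus strand of chromosome 6, encodes a small GTPase of late endosomes and stands for an ordinary unmethylated start.
Fgf4: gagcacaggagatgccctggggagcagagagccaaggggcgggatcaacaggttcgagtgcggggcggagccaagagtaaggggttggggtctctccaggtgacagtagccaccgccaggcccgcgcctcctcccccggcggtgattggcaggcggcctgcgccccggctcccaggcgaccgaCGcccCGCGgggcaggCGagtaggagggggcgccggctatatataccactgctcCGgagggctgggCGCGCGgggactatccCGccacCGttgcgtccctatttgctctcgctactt
Rab7: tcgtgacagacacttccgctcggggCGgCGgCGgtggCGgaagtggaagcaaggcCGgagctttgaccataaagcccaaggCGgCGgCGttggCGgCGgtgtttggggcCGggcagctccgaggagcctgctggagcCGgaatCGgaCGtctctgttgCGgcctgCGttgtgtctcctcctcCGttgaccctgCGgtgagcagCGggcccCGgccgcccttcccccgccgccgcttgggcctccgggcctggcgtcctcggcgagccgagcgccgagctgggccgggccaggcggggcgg
Averaged over the 28 measured CGs of the Spata1 window, the level was 5.88% in >3Div and 16.4% in control. Over the 29 of the 0610009L18Rik window it was 0.789% in >3Div and 6.76% in control. Over the 14 of the D030025P21Rik window that lie in the island it was 21.8% in >3Div and 14.2% in control. The 10 measured CGs of the Fgf4 window averaged 1.93% in >3Div and 0.989% in control, with 2.36% in 0Div and 0.811% in 1Div. The 20 of the Rab7 window averaged 0.153% in >3Div and 0.425% in control. A CG-rich window could therefore be almost free of methylation, or could hold most of its methylation in a few neighbouring CGs.

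The 3209 islands held 181318 CpGs over a summed span of 2.52 Mb. They spanned 500 to 2878 bp with a median of 710 bp, and 558 of them reached 1000 bp. An island had 30 to 289 CpGs, with a median of 51 and a median density of 7.15 CpGs per 100 bp. Reads pooled over an island had a median of 5490 in >3Div and 3331 in control, and single CpGs a median of 89 reads in >3Div and 57 in control. The libraries summed to between 84606824 and 94775128 reads over all listed CpGs. Over all these reads 26.0% were methylated in >3Div, against 44.4% in control, while the mean level over the 1045368 CpGs covered in all 4 was 38.8% in >3Div and 42.4% in control.

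Nearly all islands were close to 0% in every library, and the >3Div library was the lowest. The level of an island is the share of methylated reads pooled over its CpGs. Its median over the 3209 islands was 0.731% in control, 1.47% in 0Div, 0.665% in 1Div and 0.391% in >3Div. The middle 90% of islands ran from 0.304% to 3.32% in control, from 0.664% to 4.17% in 0Div, from 0.259% to 3.34% in 1Div and from 0.161% to 2.70% in >3Div. Levels under 1% were found in 2139 islands in control, 658 in 0Div, 2244 in 1Div and 2583 in >3Div. The 0Div library thus stood above the others at the 5th percentile, the median and the 95th percentile, and >3Div below them at the median. The highest island reached 11.9% in control, 11.5% in 0Div, 9.93% in 1Div and 15.0% in >3Div.

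**Figure D1:**
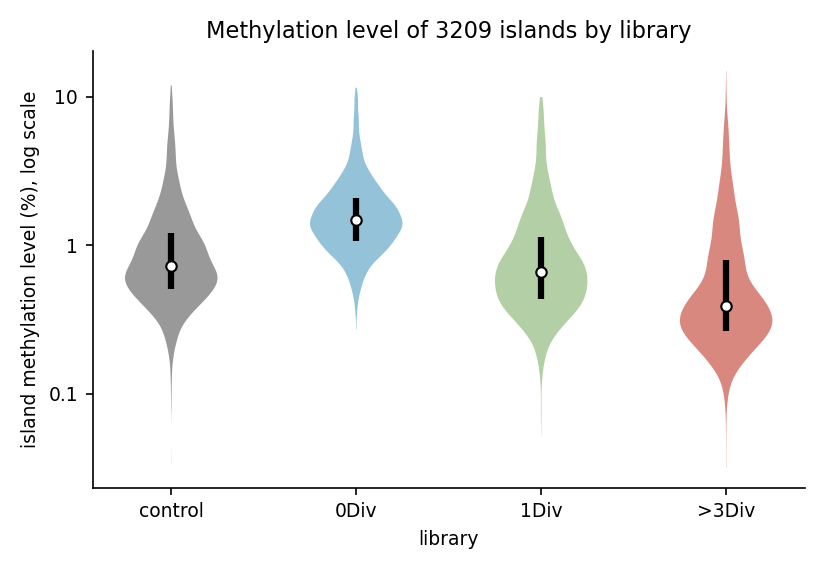
Methylation level of each of the 3209 islands (vertical axis, percent of methylated reads, log scale) in the 4 libraries. The coloured shapes give the distribution, the black bars the middle 50% and the white points the medians, which are 0.731% in control, 1.47% in 0Div, 0.665% in 1Div and 0.391% in >3Div.

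The 0Div library was higher than control in 3021 of the islands (94.1%), with a median difference of 0.65 percentage points. The 1Div library was higher than control in 1286 (40.1%), with a median difference of −0.06 points. Of the 181318 CpGs, 121260 had no methylated read in control, 90570 in 0Div, 124289 in 1Div and 121531 in >3Div. In 0Div the offset was thus spread over many CpGs. It was not particular to the islands. Over the 10551 shorter unmethylated autosomal runs the median level was 1.41% in 0Div and 0.740% in control. Over all 18181 CpG-dense runs it was 1.93% in 0Div and 1.12% in control. The bisulfite conversion rate of each library is not given in the sources used here, and its part in differences of this size was not tested.

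Between >3Div and control the islands moved little, mostly downward. The median difference, >3Div minus control, was −0.27 points, and −0.28 points when each CpG counted equally. The level was lower in >3Div in 2812 islands (87.6%) and higher in 397. For the median island, the 95% interval of counting error (Newcombe) ran from about −0.65 to 0.03 points, taken as the medians of its limits. Over all 18181 CpG-dense runs the median difference was −0.30 points, with 74.4% of runs lower in >3Div. Over the 10551 shorter unmethylated autosomal runs, which differ from the islands in span or number of CpGs, it was −0.22 points, with 70.7% lower. Over the 141 long autosomal runs at or over 10% in 0Div and 1Div, it was −4.16 points, and −2.42 points with equal weight per CpG.

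An island was called changed when Fisher's exact test (two-sided), run on reads pooled over its CpGs, gave an adjusted p under 0.05 (Benjamini-Hochberg over the 18181 runs) and the difference was at least 2 points. By this rule 4 islands gained methylation in >3Div (0.125%), against 1.36% of all runs. Loss was called in 45 islands (1.40%), against 10% of all runs. A loss of 2 points needs a starting level of at least 2%, which 349 islands and 6954 of all runs had in control. As the rule requires, all 45 losses came from those 349 islands, and all 1825 losses among the runs from those 6954. Without a minimum size, 927 of the 3209 islands were lower and 20 higher at an adjusted p under 0.05 (Fisher's exact test). Of all 18181 runs, 3522 (19.4%) were lower and 306 (1.68%) higher. The share lower was thus larger among islands, and the share higher smaller. Without a minimum size, a run with more reads passes at a smaller difference.

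**Figure D2:**
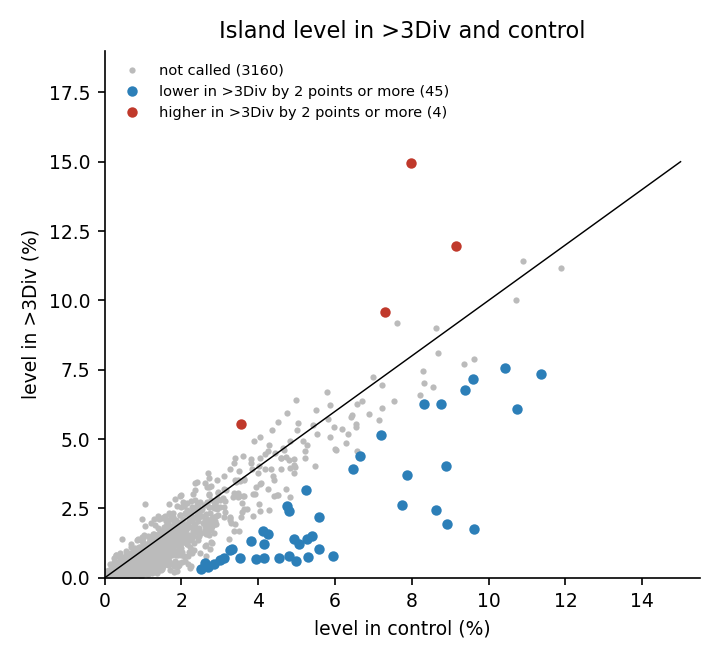
Level of each island in >3Div (vertical axis, percent) against its level in control (horizontal axis, percent), with a line of equality. The 4 islands called gained lie above the line, the 45 called lost below it, and most of the others crowd under 2% on both axes.

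Islands were also split by their pooled level in 0Div and 1Div. That level chose the islands, so the split is description only. The 1452 islands under 1% had medians of 0.273% in >3Div and 0.513% in control, and a median difference of −0.23 points (−0.24 with equal weight per CpG). The 1264 islands from 1 to 2% had medians of 0.520% in >3Div and 0.941% in control, with a difference of −0.34 points (−0.34 with equal weight) and 1 loss. The 404 islands from 2 to 5% had medians of 1.82% in >3Div and 2.24% in control, with a difference of −0.34 points (−0.34 with equal weight), 1 gain and 18 losses. The 89 islands from 5 to 10% had medians of 5.34% in >3Div and 6.34% in control, with a difference of −1.05 points, 3 gains and 26 losses. With equal weight per CpG the difference of these 89 was −0.48 points.

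Span and chromosome made little difference to the median, though calls were less even. The median difference lay between −0.35 points in the 65 islands of 1500 bp or more and −0.26 points in the 834 islands of 750 to under 1000 bp. Across the 19 autosomes, with 95 to 271 islands each, it lay between −0.31 and −0.23 points. Loss was called in 26 of the 1817 islands under 750 bp and 8 of the 834 from 750 to under 1000 bp. It was called in 7 of the 493 from 1000 to under 1500 bp and 4 of the 65 longer ones. All 4 gains were under 750 bp. The 161 islands of chromosome 12 held 2 gains and 7 losses, and chromosomes 13, 15 and 19 held no call. The longest island, 2878 bp with 234 CpGs on chromosome 13 from 108678741 to 108681618 (mm9, positions as in the deposited tables), holds a start of Zswim6, which encodes a zinc-finger SWIM-domain protein. Its level was 0.359% in >3Div and 0.519% in control. The island with the most CpGs, 289 over 2840 bp on chromosome 11 from 82744007 to 82746846, was at 2.11% in >3Div and 2.68% in control. Both were far from the 2-point minimum. Among the 3 islands highest in control, that on chromosome 12 from 20620662, with a start of LOC108167368, was at 11.4% in >3Div and 10.9% in control. Another on chromosome 12, from 21117361, was called lost, at 7.36% in >3Div and 11.4% in control. The island with the most reads, on chromosome 17 from 39981460 to 39983239, had 1433429 reads in >3Div and 987160 in control, and was at 1.41% in >3Div and 4.92% in control. This depth is far above the median island's.

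The largest losses were in islands where a short patch of neighbouring CpGs held the methylation. The Gng5 and Spata1 island, on chromosome 3 from 146162463 to 146163250, was at 1.78% (1.47 to 2.15%, Wilson interval) in >3Div and 9.62% (8.72 to 10.6%) in control, with 11.3% in 0Div and 8.35% in 1Div. The difference was −7.84 points (adjusted p = 1.09e-64, Fisher's exact test). Of its 63 CpGs, 8 were called lower, all within 423 to 491 bp of the first CpG. These are the capitals in the Spata1 sequence above. In that patch the single CpGs ran from 11.1% to 25% in >3Div and from 42.3% to 64.9% in control. Weighting each CpG equally gave −4.83 points for the island. The 8 CpGs had 33 to 100 reads each in >3Div and 57 to 132 in control, while the whole island had more reads in >3Div (5797) than in control (3774).

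The Actg1 and 0610009L18Rik island, on chromosome 11 from 120209205 to 120210167, was at 1.92% in >3Div and 8.92% in control, with 9.80% in 0Div and 9.93% in 1Div. The difference was −7.00 points (adjusted p = 5.65e-64, Fisher's exact test). Here 11 of 78 CpGs were called lower. They lay in 2 patches, 112 to 184 bp and 551 to 584 bp from the first CpG. In the patch nearer the first CpG, the CpG at 157 bp was at 2.44% in >3Div and 42.7% in control. A group of 3 CpGs just outside that patch, 84 to 97 bp from the first CpG, stayed methylated, at 95.2% to 95.5% in >3Div and 87.5% to 93.3% in control, with 15 to 22 reads each in these 2 libraries. Most of the other CpGs were under 2% in both.

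The next 3 losses were of the same kind. Prkcz encodes the atypical protein kinase C zeta, and its island on chromosome 4 from 154735148 to 154735858 was at 2.44% in >3Div and 8.63% in control (−6.19 points). Of its 53 CpGs, 5 were called lower. An island on chromosome 4 from 133523085 to 133523787, with no matched gene, was at 0.785% in >3Div and 5.95% in control (−5.16 points, or −3.09 with equal weight per CpG), and 6 of its 41 CpGs were called lower. The Frmd6 island, on chromosome 12 from 71926490 to 71927076, was at 2.63% in >3Div and 7.74% in control (−5.11 points, or −2.63 with equal weight per CpG), and 4 of its 45 CpGs were called lower. Another of its CpGs was at 63.5% in >3Div and 51.0% in control and was not called. Frmd6 encodes a FERM-domain protein that acts upstream of the Hippo pathway. Each of these 5 islands was lower in >3Div than in 0Div and 1Div, which is description only.

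Over the 45 islands called lost, the median level was 1.505% in >3Div and 5.24% in control, and 5.77% in 0Div and 5.27% in 1Div. All 45 were lower in >3Div than in either of the last 2 libraries, and they lay on 16 chromosomes. That direction is description only, because the 0Div and 1Div levels chose the islands and the 45 were picked for a low >3Div level. Over all 3209 islands the median was also lower in >3Div (0.391%) than in 0Div (1.47%) and 1Div (0.665%). In the median island of this group 5 of 54 CpGs differed by at least 10 points, and 35 of the 45 held at least 1 called CpG. With each CpG stratified (Cochran-Mantel-Haenszel test) 40 of the 45 kept their call, and 28 of the 45 also lost at least 2 points with equal weight per CpG. Of the 45, 27 had a matched gene, and 8 had matched starts on both strands. In 8 of the 27 (29.6%) a matched gene has a RefSeq pseudogene of the same name with the suffix "-ps". These genes were Ctdsp2, Dnajb6, Gng5, Rpl31, Rps6, Rps7, Tfdp1 and Tpt1. The same held for 40 of 1959 islands not called (2.04%). The comparison was chosen after the values were seen, the way the aligner treated reads that match in several places is not given in the sources used here, and its part in these losses was not tested.

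Of the 4 gains, 3 were under 3 points. The largest was on chromosome 16 from 96380779 to 96381324, with no matched gene, at 15.0% (13.8 to 16.1%) in >3Div and 7.97% (6.97 to 9.10%) in control, and at 8.64% in 0Div and 8.67% in 1Div. The difference was 6.99 points (adjusted p = 1.83e-15, Fisher's exact test), or 8.24 points with equal weight per CpG. The rise was spread over the island: 27 of its 34 CpGs were higher in >3Div and 4 were called. The D030025P21Rik island, on chromosome 12 from 86216551 to 86217245, was at 11.95% in >3Div and 9.16% in control (2.79 points, adjusted p = 0.00167 by Fisher's exact test). The other 2 gains had no matched gene. An island on chromosome 12 from 12946480 to 12947109 was at 9.57% in >3Div and 7.29% in control (adjusted p = 0.0426, Fisher's exact test). An island on chromosome 8 from 87083089 to 87083601 was at 5.55% in >3Div and 3.54% in control (adjusted p = 0.00316, Fisher's exact test). Allowing for overdispersion, estimated between control and 1Div, left 1 of the 4 gains past the threshold, that on chromosome 16.

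**Figure D3:**
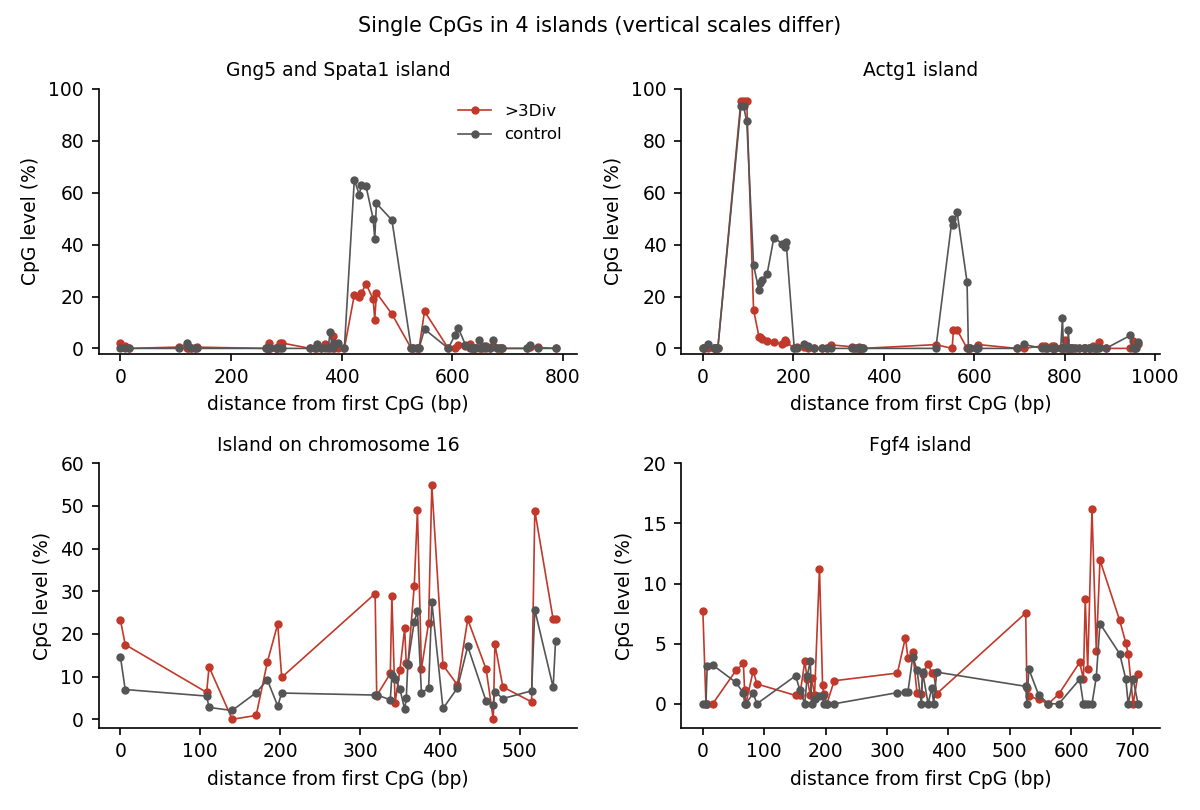
Level of single CpGs (vertical axes, percent, scales differ) by distance from the first CpG of the island (horizontal axes, bp) in >3Div and control, for the islands of Gng5 and Spata1, of Actg1 and 0610009L18Rik, on chromosome 16 from 96380779, and of Fgf4. The 2 losses sit in short patches, and the difference in the chromosome 16 island is spread over 27 of 34 CpGs.

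Few single CpGs of the islands were called changed. A CpG was called at an adjusted p under 0.05 over 1045368 CpGs and a difference of at least 10 points. Among the 181318 island CpGs 30 gained methylation in >3Div (0.0165%, against 0.134% of all CpGs) and 285 lost it (0.157%, against 3.59%). A loss of 10 points needs a level of at least 10%, which 3766 island CpGs (2.08%) had in control. All 1045368 CpGs averaged 42.4% in control, and the part of the starting level in the unlike shares was not tested. The gains lay in 22 islands and the losses in 168. Island CpGs were also split by their level in 0Div and 1Div, which chose the islands, so the split is description only. Called shares of all CpGs at the same levels were not computed. The 70846 CpGs with no methylated read in 0Div and 1Div averaged 0.377% in >3Div and 0.518% in control. The 1172 CpGs from 20 to 50% in 0Div and 1Div averaged 16.5% in >3Div and 24.4% in control, and 115 (9.81%) were called lower. The 106 CpGs at 50% or more averaged 41.3% in >3Div and 55.6% in control, and 18 (17.0%) were called lower. Depth moved with this level: the median ratio of reads, >3Div over control, was 1.5 for the CpGs at 0% and 1.05 for those at 50% or more. Its part in the differences was not tested.

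Methylation inside the islands was slightly higher toward their ends. CpGs within 50 bp of an end averaged 1.23% in >3Div and 1.54% in control, and those 300 bp or more inside averaged 0.780% in >3Div and 1.17% in control. Pooled over reads, the outer 100 bp exceeded the rest by 0.25 points (0.242 to 0.260) in >3Div and by 0.11 points (0.0915 to 0.121) in control. The island of most reads set the control value: without it the difference was 0.32 points in >3Div and 0.34 points in control. Called losses were not gathered at the ends, since 28.1% of them and 28.7% of all island CpGs lay within 100 bp of an end. Most island CpGs were too low to lose 10 points. Of the CpGs at 10 to 20%, 20 to 50% and 50% or more in 0Div and 1Div, 38.4%, 36.0% and 40.6% lay there. These shares are above the 28.1% of called losses, but the sets differ. The called losses also include 26 CpGs under 5% and 46 from 5 to 10% in 0Div and 1Div. Whether losses avoid the ends was not tested.

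Beyond the ends the level climbed with distance. The flanking CpGs were those below the density minimum of the islands, and denser CpGs outside were left out. CpGs inside and outside thus differ in density as well as in place, and the part of density in the climb was not tested. Flanking CpGs 1 to 100 bp outside averaged 2.07% in >3Div and 2.53% in control. Those 501 to 1000 bp outside averaged 15.0% in >3Div and 17.2% in control, and those 2001 to 5000 bp outside averaged 45.4% in >3Div and 50.6% in control. The difference, >3Div minus control, widened with the level from −0.46 points next to the island to −5.24 points at the far distance. Over the same distance the ratio of the median read counts, >3Div over control, was 1.52 next to the island and 0.841 at the far distance.

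**Figure D4:**
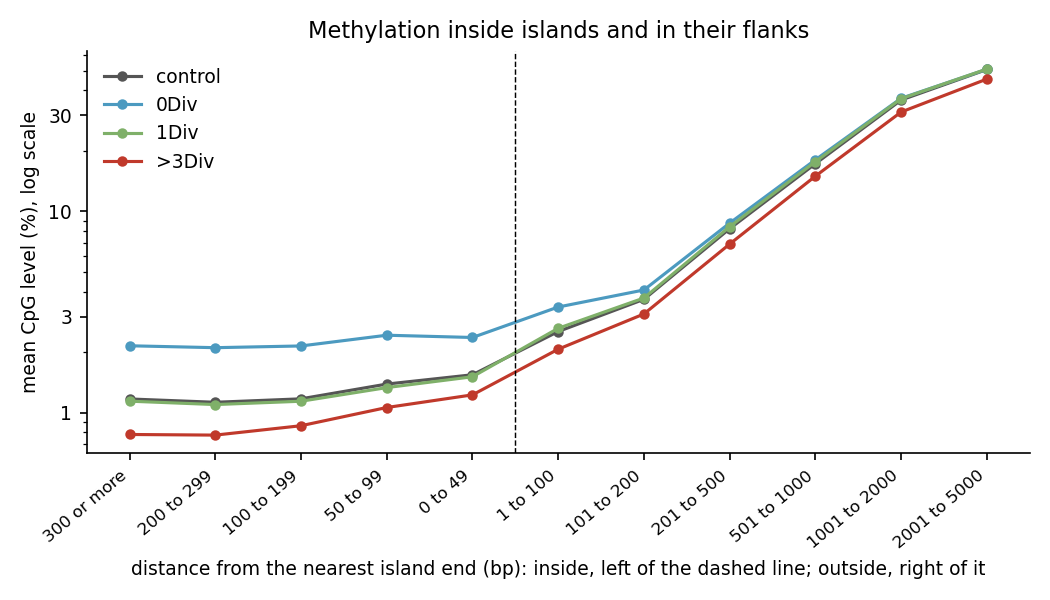
Mean CpG level (vertical axis, percent, log scale) by distance from the nearest island end (horizontal axis, bp), inside the islands left of the dashed line and outside right of it, in the 4 libraries. The CpGs outside are only those below the density minimum of the islands. Control runs from 1.17% deep inside to 50.6% at 2001 to 5000 bp outside, and >3Div lies below control in every bin.

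Most islands lay over a gene start. Of 12999 RefSeq promoter sequences with at least 12 CGs, 7904 matched the listed CpGs of their chromosome at 1 offset, and 1987 islands (61.9%) held at least 1 match, to 2344 genes in all. Starts on both strands, as at Gng5 and Spata1, occurred in 360 of them. In the 1627 islands with starts on 1 strand, 94.5% had the start inside. The island reached a median of 221 bp upstream and 481 bp downstream of it, and the downstream arm was the longer in 1210 islands (74.4%). An island ends where covered CpGs end or where fewer than 12 CpGs are listed within 100 bp either side, so these arms measure the dense covered stretch. The median level of islands with a matched start was 0.355% in >3Div and 0.679% in control, with 1 gain and 27 losses. The 1222 without one had medians of 0.467% in >3Div and 0.864% in control, with 3 gains and 18 losses. A missing match can be a start with too few listed CpGs and does not show that no gene begins there.

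**Figure D5:**
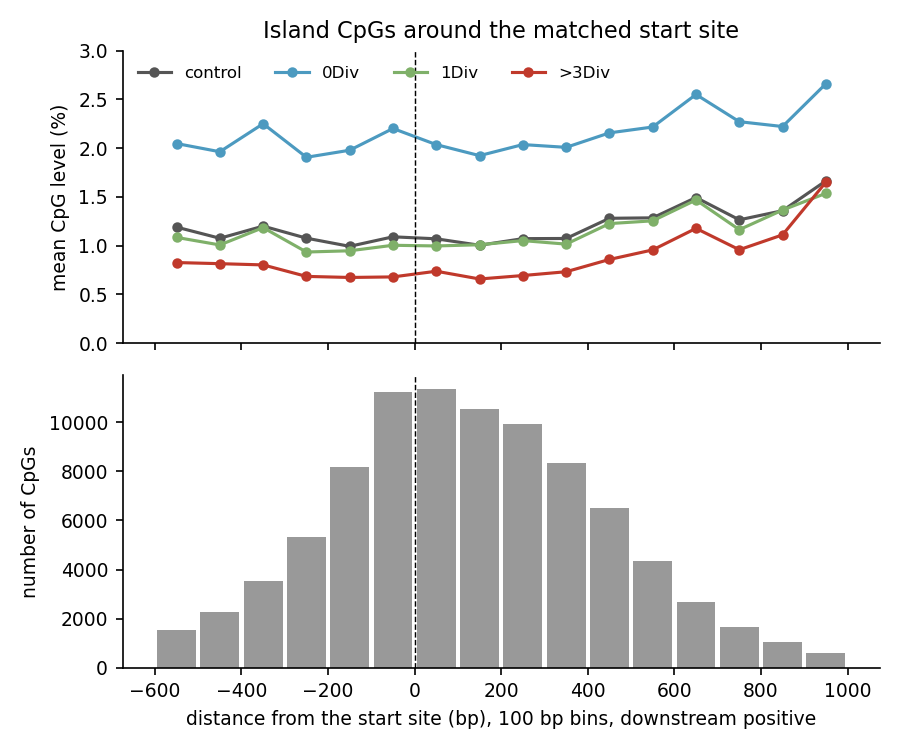
Mean level of island CpGs (upper panel, percent) and number of CpGs (lower panel) in 100 bp bins of distance from the matched start (horizontal axis, bp, downstream positive) in islands with starts on 1 strand, for the 4 libraries. The lines stay nearly flat across the start, 0Div lies highest in all bins, and >3Div lies below control in all of them.

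The promoters of these islands were rich in GC and in CG. The 2664 promoter sequences matched to islands had a median GC content of 71.7%, 34 CGs in 300 bases and an observed over expected CG ratio of 0.929. All 32851 promoter sequences had medians of 52.7%, 7 CGs and 0.384, and those matched outside these islands 65.7%, 26 CGs and 0.833. Because the islands were chosen for CpG density, this is description. Motifs were searched on both strands. GGGCGG, the core of the GC box bound by Sp1, was present in 86.4% of island promoters and 35.7% of all promoters, and it contains a CG itself. The TATA box TATAAA was present in 2.74% of island promoters and 13.6% of all, and CCAAT, bound by NF-Y, in 28.1% and 37.4%. CCGGAAG, an Ets-type motif that also holds the MspI site, was present in 16.8% of island promoters and 8.86% of all. CCGG, the MspI site, was present in 100% of island promoters and 52.8% of all. The 5240 promoters that were matched outside these islands lie between the island promoters and all promoters in GGGCGG (78.2%), TATAAA (4.05%) and CCAAT (34.4%). CCGGAAG was more frequent in them (22.5%) than in island promoters, so its difference from all promoters is not particular to the islands.

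Genes of 7 lists were looked up among the islands, and no island of any list was called by the 2-point rule. Of all 3209 islands, 1.40% were called lost and 0.125% gained, and their median difference was −0.27 points. With 2 to 8 islands per list, the absence of a call is near that share and is not a result about the lists. For all CpG-dense runs, which include highly methylated ones, the median difference is −0.30 points and 10% are called lost. Nearly all differences named here are under 1 point, and the part that unequal bisulfite conversion of the 2 libraries may have in differences of that size was not tested. The p-values compare read counts only. Housekeeping genes had 4 of 29 genes in islands, with a median difference of −0.26 points. Cfl1, which encodes the actin-severing protein cofilin, was at 0.165% in >3Div and 1.23% in control (−1.06 points, adjusted p = 4.29e-08, Fisher's exact test). Eef1a1, a translation elongation factor gene, was at 0.365% in >3Div and 0.382% in control. Ppia, the gene of cyclophilin A, was at 0.401% in >3Div and 0.867% in control. Rab7 was at 0.260% in >3Div and 0.321% in control.

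Cell cycle genes had 7 of 35 genes in islands, 8 islands in all, each lower in >3Div, with a median difference of −0.33 points. Of all 3209 islands 87.6% were lower, so this direction is near that share and is not a result about the list. E2f3, an activating E2F factor of the G1 to S transition, was at 0.189% in >3Div and 0.992% in control (adjusted p = 0.000993, Fisher's exact test). The Cdkn2a island, at the gene of the p16 and p19Arf growth inhibitors, was at 0.447% in >3Div and 0.899% in control, with 1.48% in 0Div and 0.889% in 1Div. Cdk2, the cyclin-dependent kinase of S-phase entry, was at 0.189% in >3Div and 0.229% in control. E2f1, of the same family as E2f3, was at 0.240% in >3Div and 0.636% in control (adjusted p = 0.0165, Fisher's exact test). Ccne1, the gene of cyclin E1, was at 0.394% in >3Div and 0.583% in control, and Mdm2, the p53 ubiquitin ligase gene, at 0.309% in >3Div and 0.379% in control. In the list of DNA methylation machinery, 2 of 17 genes had islands. Dnmt3a, a de novo methyltransferase gene, was at 3.38% in 0Div and 0.540% in >3Div, against 0.868% in control. Kdm2b, whose CXXC domain binds unmethylated CpGs, was at 0.430% in >3Div and 0.701% in control.

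Developmental transcription factors had 7 of 45 genes in islands, with a median difference of −0.38 points. Of the 7, 5 were lower in >3Div, against 87.6% of all islands. The median level of the 7 was 2.70% in >3Div and 2.71% in control. Msx1, a homeobox gene of limb and craniofacial mesenchyme, was at 0.549% in >3Div and 1.31% in control (adjusted p = 0.0128, Fisher's exact test). Dlx2, a homeobox gene of forebrain and branchial arches, was at 5.80% in >3Div and 6.42% in control. Foxd3, a neural crest factor, was at 3.27% in >3Div and 2.71% in control, and Pax2, a kidney and eye factor, at 0.898% in >3Div and 0.648% in control. Six2, a kidney progenitor factor, was at 3.68% in >3Div and 4.39% in control, and Nkx6-1, a pancreatic and neural factor, at 2.70% in >3Div and 2.87% in control. The last 5 differences did not pass the test. Of 39 Hox genes, 2 had islands: Hoxd1 at 2.03% in >3Div and 2.88% in control (adjusted p = 0.0357, Fisher's exact test), and Hoxd11 at 2.27% in >3Div and 2.39% in control.

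Mesenchymal and epithelial genes had 2 of 28 genes in islands, both of repressors of epithelial genes. Zeb2 was at 0.338% in >3Div and 0.891% in control (adjusted p = 0.00936, Fisher's exact test), and Snai1 at 0.379% in >3Div and 0.345% in control. Pluripotency genes had 3 of 25 genes in islands. Sall1, a zinc-finger gene, was at 0.878% in >3Div and 1.84% in control (adjusted p = 0.0168, Fisher's exact test). Gbx2, a homeobox gene, was at 1.59% in >3Div and 1.68% in control.

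The Fgf4 island went the other way. On chromosome 7 from 152047223 to 152047932, it was at 2.67% (2.34 to 3.05%) in >3Div and 1.05% (0.793 to 1.40%) in control, with 1.29% in 0Div and 1.72% in 1Div. The difference was 1.62 points (adjusted p = 8.65e-09, Fisher's exact test), short of the 2-point minimum, and 1.81 points with equal weight per CpG. Of its 51 CpGs, 35 were higher in >3Div and 1 was called. The CpG highest in >3Div, 634 bp from the first, was at 16.2% in >3Div and 0% in control. The CpG highest in control, 647 bp from the first, was at 11.9% in >3Div and 6.67% in control.

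The values of runs next to each limit of the rule are given here without a test. Just inside the 10% level, an island on chromosome 9 from 55389879 had a pooled 0Div and 1Div level of 9.91%, and the Rbm46 island on chromosome 3 had 9.90%. Their levels were 11.2% in >3Div and 11.9% in control for the chromosome 9 island, and 8.11% in >3Div and 8.69% in control for Rbm46, which encodes an RNA-binding protein of germ cells. Just outside, runs on chromosome 5 from 149863679 and chromosome 8 from 114464605 had pooled levels of 10.06% and 10.2%. They were at 1.13% in >3Div and 10.8% in control, and at 2.28% in >3Div and 8.63% in control. Just inside the span limit, 2 islands of 500 bp (Pip5k1c on chromosome 10 and one on chromosome 11 from 101326986) were at 0.132% and 0.223% in >3Div, and at 0.264% and 0.279% in control. Just outside, 2 runs of 499 bp, on chromosome 1 from 130140796 and on chromosome 11 from 51464081, were at 0.258% and 0.659% in >3Div, and at 0.360% and 0.971% in control. Just inside the CpG limit, the Tuba4a and Gigyf2 islands with 30 CpGs each were at 5.08% and 0.0958% in >3Div, and at 5.87% and 0.480% in control. Just outside, 2 runs of 29 CpGs on chromosome 1, from 58480187 and from 138027994, were at 0.217% and 3.64% in >3Div, and at 0.251% and 3.35% in control.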

How the data were processed

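The authors deposited, for each of the 4 libraries, a list of CpGs with methylated and unmethylated read counts. The build is mm9, per the submitters' processing notes. Not given in the sources used here are the aligner, the treatment of duplicate and multiply matching reads, and whether positions count from 0 or 1. Per the labels' protocols, libraries were MspI-digested, bisulfite treated and size selected. No column was left unused.

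The level of an island is methylated over all reads, pooled over its CpGs; equal weight per CpG was an alternative. Tests used SciPy 1.17.1 with NumPy 2.4.6 and pandas 2.3.3: two-sided Fisher's exact tests, >3Div against control, Benjamini-Hochberg adjusted over 18181 runs (call at 2 points) or 1045368 CpGs (call at 10 points), at 0.05. Levels have 95% Wilson intervals and differences Newcombe intervals. The code was checked on simulated data. A promoter sequence was matched where at least 12 listed CpGs all fell on its CGs at a single offset of its chromosome; 1 reversed sequence matched. No mm9 annotation was used. Separate cultures are not stated.

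Named islands were the 5 largest gains and losses among called islands whose equal-weight difference also reached 2 points, the longest, those with most CpGs, those highest in control or >3Div, those next to each limit, and in each gene list the 3 lowest and 3 highest differences. The island of most reads, the Gng5 to Actg1 CpG patches and the pseudogene count were singled out after their values were seen. Members and lists were chosen with earlier results of these data known.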

Additional observations from a re-analysis of the deposited data

How the results depend on the processing

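No paired analysis was possible because each group has 1 library, and for the same reason no replicate could be left out. The median difference of the islands, >3Div minus control, lay between −0.30 and −0.25 points under the 8 alternatives run for it: equal weight per CpG, a coverage minimum of 5 or 20 reads, thinning to the lowest coverage, leaving out the deepest CpGs, a join distance of 100 bp, a pooled level under 5% and a span of at least 1000 bp. It was −0.26 points without CpGs within 100 bp of an end, an alternative chosen after seeing the data. The 4 gains and 45 losses became 11 and 142 at a minimum of 1 point, 1 and 5 at 5 points, and 2 and 21 with a join distance of 100 bp, which leaves fewer islands. Counts divided by the overdispersion of 1.99 gave 1 gain. Under the other alternatives there were 3 to 5 gains and 33 to 57 losses. The 30 gained and 285 lost CpGs became 14 and 148 at a minimum of 20 points, and 13 and 139 after thinning. The difference between the outer 100 bp and the rest, 0.25 points in >3Div and 0.11 in control, became 0.29 and 0.22 with an edge of 50 bp, 0.18 and 0.0296 with 200 bp, 0.35 and 0.32 with equal weight per CpG, and 0.32 and 0.34 without the island of most reads (chosen after seeing the data). For the 10 islands of the named gains and losses, Fgf4 included, 64 of 70 values kept their direction and their side of the call (adjusted p and 2 points), 6 lost the call and 0 reversed. These 6 were gains on chromosomes 8 and 12, and the cause was not tested. Some of the 70 values could not have come out otherwise. The Cochran-Mantel-Haenszel and overdispersion settings kept the pooled difference, so they could not reverse it. The equal-weight setting kept the adjusted p. It could not remove a named gain or loss, since these were chosen by an equal-weight difference of at least 2 points. Fgf4 kept its side by staying uncalled. Depth limits islands under 1%, where a difference is under 1 read per CpG at these depths.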

Other observations

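The 0Div library was 2 points or more above control in 79 islands and 2 points or more below it in 1, and the 1Div library in 6 and 5 islands. Such counts were made for the islands only, not for other runs. In the Dnmt3a island of 135 CpGs, on chromosome 12 from 3806532 to 3808234, 0Div was at 3.38%, against 0.868% in control. These values have no test, because the 0Div and 1Div levels chose the islands.

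Among the 48 islands whose matched gene has a RefSeq pseudogene with the suffix "-ps", the median level was 0.359% in >3Div and 0.770% in control, and 8 (16.7%) were called lost. Among the 1939 other islands with a matched gene, the medians were 0.355% in >3Div and 0.679% in control, and 19 (0.980%) were called lost. The count was made after the values were seen.

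CpGs at 50% or more lay in 56 islands in >3Div and in 88 islands in control, and there were 79 such CpGs in >3Div and 127 in control. Islands with at least 1 CpG at 10% or more numbered 917 in >3Div and 1432 in control. Island CpGs had a median of 89 reads in >3Div and 57 in control, and at 10 reads 1 methylated read gives 10%. The part of depth in these counts was not tested.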
